A study of Bos indicus with 9 samples.

Results

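Interferon-stimulated genes are the genes that a cell switches on when an interferon binds its receptors. A list of 54 such genes was set, and each was taken where the array's probe table gave a probe set with that gene's symbol alone. That rule found 41 of the 54, on 60 probe sets, among 9142 genes with a symbol of their own and 23961 probe sets tested. Each gene is represented by whichever of its probe sets had the highest mean signal over the 9 arrays. OAS1Y and OAS2 stand only on a probe set with several symbols, and IFIT1, IFIT3, CMPK2, ADAR, BST2, PLAC8, IFIH1, IRF1, SP110, GBP2 and CXCL9 were not found by the rule; these 13 are not analysed here.

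Type I interferons signal through the receptor chains IFNAR1 and IFNAR2 and assemble a complex that includes STAT2 and IRF9, which enters the nucleus and turns on antiviral effectors, RNA and DNA sensors and the machinery that attaches the ubiquitin-like protein ISG15 to other proteins. Interferon gamma acts through receptor chains of its own and is a strong inducer of the guanylate-binding proteins (GBPs), the peptide transporters TAP1 and TAP2 and the chemokines that attract T cells through the receptor CXCR3. In ruminants the early embryo secretes interferon tau, a type I interferon that signals pregnancy, and these genes are known to respond to it in the uterus, in blood leukocytes and in the corpus luteum. The corpus luteum is the gland that forms from the ovulated follicle and secretes progesterone.

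The tissue was the corpus luteum of Nelore crossbred cows (Bos indicus, aged 2 to 5 years), taken at slaughter on day 6 after ovulation and measured on 1 Affymetrix array per animal. Estradiol benzoate and a progesterone device synchronised the cycle in all 3 groups, and animals were assigned to groups at random. In the stimulated group (3 animals) 400 IU of equine chorionic gonadotropin (eCG), a hormone that acts on the LH and FSH receptors of cattle, was given on day 8 of the protocol. In the superovulated group (3 animals) 2000 IU was given on day 4, and the control group (3 animals) had no eCG. Dose and day changed together, so they cannot be told apart. Values are log2 signals, 1 unit being a doubling of signal, and are compared only within a gene.

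The labelled tissue was checked against its own genes. The steroid genes STAR, CYP11A1 and HSD3B1 lay between 13.92 and 14.84 in all 9 animals. The 11 luteal markers found had a median log2 fold change of -0.002 in stimulated against control animals. In limma 0 of them passed an unadjusted p of 0.05, where 4.2% of all genes were higher and 3.08% lower. Array medians lay between 4.19 and 4.25, and arrays correlated between 0.987 and 0.994 within groups. The difference between the 3' and 5' probe sets of cyclophilin, a sign of RNA quality, was 0.24 to 0.32 in stimulated, 0.23 to 0.31 in superovulated and 0.14 to 0.18 in control animals, so that both treated groups lay above all controls. Of the 6 transcripts with such probe sets, GAPDH was also above all controls in stimulated animals, GST and eIF-4E were in superovulated animals, and actin and EF1A overlapped in both. Their part in what follows was not tested.

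Most interferon-stimulated genes had more signal after 400 IU of eCG on day 8 than in control corpora lutea. In stimulated against control animals 38 of 41 members were higher and 3 lower, with a median log2 fold change of 0.54 where the median over all 9142 genes was -0.003. In limma's moderated test 22 of 41 (53.7%) were higher at an unadjusted p under 0.05, where 4.2% of all genes were, and 0 were lower, where 3.08% of all genes were. The values of the 3 stimulated animals all lay above those of the 3 control animals in 16 members (6.51% of all genes) and all below in 1 (6.37% of all genes), HERC6. After Benjamini-Hochberg adjustment over 23961 probe sets 0 members passed 0.05, as against 0.00417% of all probe sets, and the smallest adjusted p was 0.379 (UBA7). No filter on low values was used; of the 8 members with a mean signal below the median of all probe sets 2 were among the 22, and of the other 33 members 20 were. Without control animal 3 the count of 22 became 10, without control animal 1 or stimulated animal 1 it became 13, and without stimulated animal 3 it became 14.

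After 2000 IU on day 4 the median difference of the same list from control animals was small. In superovulated against control animals 32 members were higher (78.0%, against 53.2% of all genes) and 9 lower. The median was 0.06, against 0.01 over all genes, and single members ran from -0.72 to 1.08. At an unadjusted p under 0.05 in limma 1 member was higher (UBA7; 3.13% of all genes) and 1 lower (HERC5; 2.14% of all genes). The groups lay apart upward in UBA7 and IFIT5 (5.52% of all genes) and downward in HERC5 (4.08% of all genes). Adjusted over all probe sets 0 members passed (0% of all probe sets), and the smallest adjusted p was 0.719. This comparison rests on few animals: without control animal 2 its median became 0.31 and 5 members were higher, and without superovulated animal 2 it was 6 members. The count of 1 became 0 without control animal 1 or 3, superovulated animal 1 or 3, or stimulated animal 3, which enters through the shared spread.

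Set directly against each other, the stimulated animals had the higher level in 37 of 41 members and the lower in 4. The median log2 fold change, stimulated minus superovulated, was 0.45, against -0.01 over all genes. In limma 17 members were higher at an unadjusted p under 0.05 (4.19% of all genes) and 0 lower (4.85% of all genes). With the replicate number as a block, 14 of those 17 were higher, and DHX58, IFI44 and USP18 no longer passed. Stimulated animals lay wholly above superovulated ones in 16 members (5.76% of all genes) and wholly below in 1, HERC6 (7.15% of all genes). Adjusted over all probe sets 0 members passed (0.00417% of all probe sets), with the smallest adjusted p, 0.353, at HERC5. Without stimulated animal 1, or without superovulated animal 2, the count of 17 became 9. All 3 comparisons use the same 9 animals, so each shares a group with the next.

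**Figure D1:**
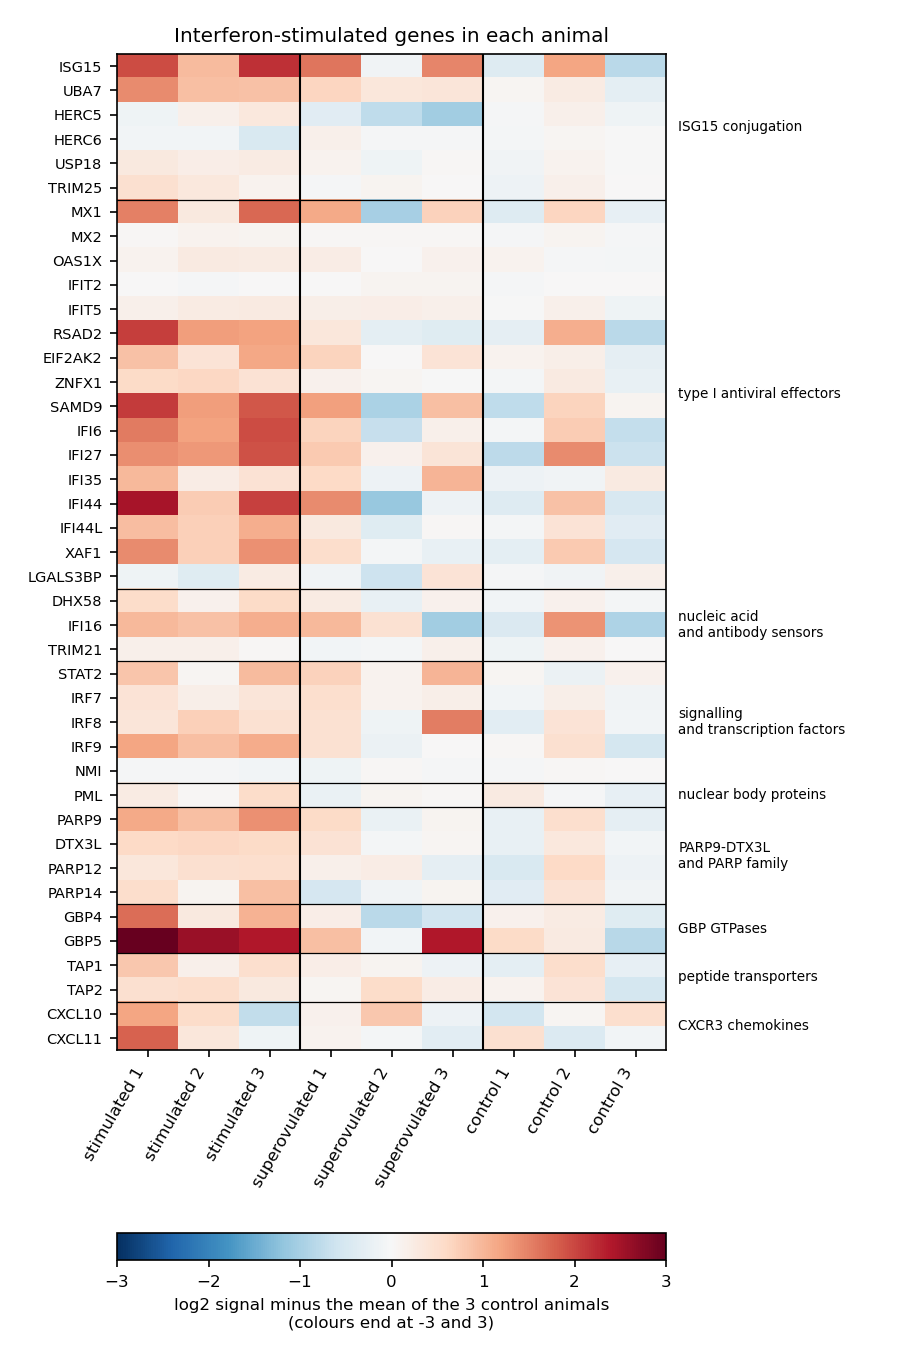
Each row is 1 of the 41 interferon-stimulated genes, grouped by role, and each column an animal, with stimulated, superovulated and control animals from left to right. Colour gives log2 signal minus the mean of the 3 control animals, so that red is above control; the stimulated columns are mostly red, superovulated 2 and controls 1 and 3 are often blue, and control 2 is red for many genes.

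The ISG15 pathway held 6 members, with a median log2 fold change of 0.27 in stimulated against control animals. At an unadjusted p under 0.05 in limma 4 were higher (4.2% of all genes) and 0 lower (3.08% of all genes). UBA7, the enzyme that activates ISG15 for conjugation, was at 9.09, 8.56 and 8.55 in stimulated, 8.31, 8.01 and 8.02 in superovulated and 7.72, 7.91 and 7.36 in control animals. The 3 groups did not overlap, with stimulated animals highest, superovulated ones between and controls lowest. The log2 fold change of UBA7 was 1.07 in stimulated against control animals (SE 0.19, limma adjusted p = 0.379), and in superovulated against control animals it was 0.45 (SE 0.19, adjusted p = 0.802). ISG15 itself, which circulates as a free protein as well as being attached to others, averaged 10.16 in stimulated, 9.46 in superovulated and 8.46 in control animals. Its groups overlapped because stimulated 2, at 9.42, lay below control 2, at 9.66.

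HERC5 and HERC6, ligases that transfer ISG15, did not pass an unadjusted p of 0.05 in stimulated against control animals. HERC5, the main ISG15 ligase in humans, was at 4.13, 4.42 and 4.59 in stimulated, 3.92, 3.49 and 3.21 in superovulated and 4.24, 4.42 and 4.13 in control animals. Here the superovulated animals stood apart below the other 2 groups, by a log2 fold change of -0.72 against control animals (SE 0.19, limma unadjusted p = 0.006, adjusted p = 0.719). Stimulated minus superovulated it was 0.84 (SE 0.19, adjusted p = 0.353). HERC6, the neighbouring gene and the main ISG15 ligase in mice, was at 2.87, 2.87 and 2.48 in stimulated, 3.11, 2.91 and 2.91 in superovulated and 2.89, 3.01 and 2.95 in control animals. Its stimulated animals were the lowest, with a log2 fold change of -0.21 against control animals that did not pass 0.05 (limma unadjusted p = 0.118). The mean signal of HERC6 was low, at 2.89, above only 29.7% of probe sets. Without stimulated animal 3 the log2 fold change became -0.08. USP18, the protease that removes ISG15, averaged 6.53 in stimulated, 6.30 in superovulated and 6.29 in control animals, and TRIM25, a ubiquitin ligase of RNA sensing in humans, averaged 8.96, 8.68 and 8.66 in the same order. The other 3 probe sets of USP18 gave larger differences between stimulated and control animals than the 0.24 of the chosen one, at 0.50, 0.63 and 0.45.

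Antiviral effectors made up the largest group, with 16 members found. Against control animals, their median log2 fold change in stimulated animals was 0.86. At an unadjusted p under 0.05 in limma 11 of these were higher (4.2% of all genes) and 0 lower (3.08% of all genes). In superovulated against control animals it was 0 and 0 of 16, near the shares of all genes (3.13% and 2.14%), with a median of 0.07. In stimulated against superovulated animals it was 6 and 0 (4.19% and 4.85% of all genes), with a median of 0.69.

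Among the effectors, ZNFX1, a helicase that senses viral RNA, was at 8.43, 8.48 and 8.27 in stimulated, 7.97, 7.92 and 7.83 in superovulated and 7.79, 8.13 and 7.64 in control animals. IFI6, which in human cells protects the endoplasmic reticulum from flavivirus replication, was at 11.32, 10.96 and 11.70 in stimulated, 10.41, 9.07 and 9.91 in superovulated and 9.70, 10.51 and 9.05 in control animals. IFI44L was at 5.77, 5.56 and 5.94 in stimulated, 5.15, 4.49 and 4.90 in superovulated and 4.80, 5.26 and 4.51 in control animals. In all 3 genes the stimulated animals stood above every other animal, while superovulated and control animals overlapped. The log2 fold change of stimulated against control animals was 0.54 for ZNFX1 (SE 0.13, limma adjusted p = 0.526), 1.57 for IFI6 (SE 0.44, adjusted p = 0.640) and 0.90 for IFI44L (SE 0.23, adjusted p = 0.570). A second probe set of ZNFX1, at a mean signal of 2.80, gave 0.07 with overlapping groups (limma unadjusted p = 0.339). For superovulated against control animals the 95% interval was -0.24 to 0.35 for ZNFX1, -0.99 to 1.07 for IFI6 and -0.54 to 0.52 for IFI44L. With an interval as wide as that of IFI6, the result does not show that superovulated and control animals were alike.

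**Figure D2:**
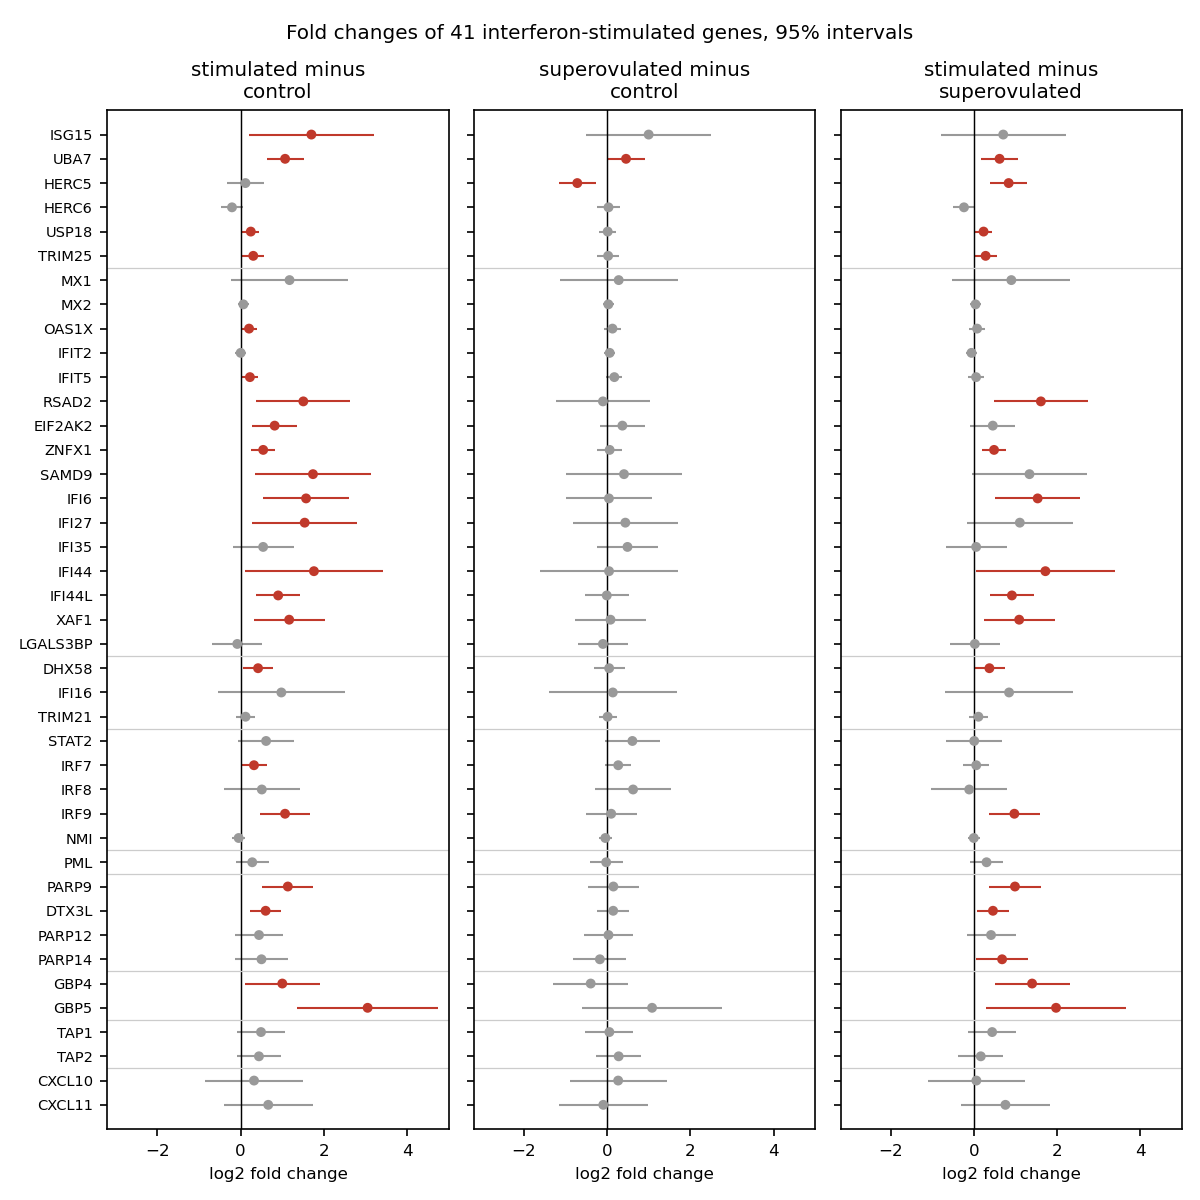
Points are log2 fold changes of the 41 genes in limma's fit and lines their 95% intervals, with 1 panel for each comparison and red where the unadjusted p is under 0.05. In the panels of stimulated minus control and stimulated minus superovulated 22 and 17 genes are red, all to the right of 0; in the panel of superovulated minus control UBA7 and HERC5 alone are.

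The other effectors with large differences had wide spreads. RSAD2 (viperin), which makes a nucleotide that ends viral RNA chains, averaged 5.55 in stimulated, 3.94 in superovulated and 4.04 in control animals. SAMD9, a restriction factor of poxviruses in human cells, averaged 6.47, 5.14 and 4.73 in the same order. For both, all stimulated animals lay above all control animals. IFI27, a small mitochondrial protein, averaged 12.26 in stimulated, 11.15 in superovulated and 10.72 in control animals, and IFI44 averaged 6.99, 5.27 and 5.23. XAF1, which promotes cell death, averaged 7.74 in stimulated, 6.65 in superovulated and 6.57 in control animals. These 5 genes were higher in stimulated than in control animals at an unadjusted p under 0.05, with log2 fold changes of 1.51, 1.74, 1.54, 1.76 and 1.17. In IFI27, IFI44 and XAF1, however, control 2 reached into the range of the stimulated animals. IFI44 has 3 other probe sets, which gave 1.83, 1.53 and 1.32.

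MX1, a dynamin-like GTPase that blocks influenza and other viruses and a common marker of interferon exposure in cattle, did not pass an unadjusted p of 0.05. It averaged 8.77 ± 0.76 in stimulated, 7.87 ± 1.12 in superovulated and 7.59 ± 0.57 in control animals (SD, n = 3), and its log2 fold change of stimulated against control animals was 1.18 (SE 0.61, limma unadjusted p = 0.0914). EIF2AK2 (PKR), the kinase that stops translation on sensing double-stranded RNA, averaged 5.14 in stimulated, 4.68 in superovulated and 4.32 in control animals. Its second probe set ran the other way, with a log2 fold change of -0.27 between stimulated and control animals against 0.82 for the chosen one. IFIT5 and OAS1X passed an unadjusted p of 0.05 with differences of only 0.22 and 0.20. MX2 and IFIT2 differed by 0.07 and 0.002 between stimulated and control animals. Their mean signals were low, at 2.14 and 3.30, and MX2 lay above only 7.99% of probe sets. At such levels a small difference does not show that a gene did not respond. IFI35, a partner of NMI, differed by 0.54.

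LGALS3BP, a secreted glycoprotein that binds galectins, was at 10.67, 10.43 and 11.03 in stimulated, 10.68, 10.17 and 11.21 in superovulated and 10.74, 10.68 and 10.95 in control animals. All 3 groups overlapped, and it was 1 of the 3 members with a negative log2 fold change between stimulated and control animals, at -0.08 (95% interval -0.68 to 0.52). Its second probe set gave -0.02. On IFIT5, LGALS3BP, NMI and TAP2 the place of the decimal mark was open on all arrays and was settled by the spread between arrays.

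The 3 sensors found had a median log2 fold change of 0.42 in stimulated against control animals. DHX58 (LGP2), which tunes the RNA sensors RIG-I and MDA5, was at 4.31, 3.90 and 4.34 in stimulated, 4.00, 3.54 and 3.90 in superovulated and 3.68, 3.90 and 3.71 in control animals. Its stimulated and control animals met at 3.90, and its log2 fold change was 0.42 (SE 0.16, limma unadjusted p = 0.0311, adjusted p = 0.756). IFI16, a DNA sensor, averaged 8.71 in stimulated, 7.86 in superovulated and 7.73 in control animals, but ranged from 6.81 to 9.07 among the controls. TRIM21, the cytosolic antibody receptor, differed by 0.12 between stimulated and control animals.

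Signalling and transcription factors were split. IRF9, the DNA-binding subunit of the type I interferon complex, was at 8.08, 7.80 and 8.02 in stimulated, 7.36, 6.72 and 6.91 in superovulated and 6.94, 7.39 and 6.37 in control animals. STAT2, its partner in that complex, was at 7.37, 6.60 and 7.48 in stimulated, 7.22, 6.65 and 7.56 in superovulated and 6.59, 6.35 and 6.67 in control animals. IRF9 was thus higher in every stimulated animal than in any other animal, by 1.07 against control animals (SE 0.26, limma adjusted p = 0.539) and by 0.97 against superovulated animals (adjusted p = 0.382). STAT2 had about the same mean in both treated groups, 7.15 ± 0.48 in stimulated and 7.14 ± 0.46 in superovulated animals, against 6.54 ± 0.17 in control animals (SD, n = 3). Its log2 fold change was 0.61 in stimulated and 0.60 in superovulated against control animals (SE 0.29 each, limma unadjusted p = 0.0672 and 0.0702). With the replicate number as a block the limma unadjusted p was 0.00414 and 0.00441. The interval of the difference between the treated groups was -0.66 to 0.68.

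IRF8 and IRF7 differed between their probe sets. The chosen probe set of IRF8, a factor of myeloid and dendritic cells, had log2 fold changes of 0.51 in stimulated and 0.62 in superovulated against control animals, and that of IRF7, which drives interferon alpha genes, had 0.32 and 0.26. The stimulated difference of IRF7 passed an unadjusted p of 0.05 (limma unadjusted p = 0.042), and those of the chosen IRF8 probe set did not. The second IRF8 probe set had 0.06 in stimulated and 0.32 in superovulated against control animals (limma unadjusted p = 0.00366 for the superovulated animals, which all lay above the controls). The other 2 probe sets of IRF7 had 0.04 and 0.10 in stimulated against control animals and did not pass. NMI, a partner of STAT proteins, was at 11.71, 11.71 and 11.64 in stimulated, 11.59, 11.76 and 11.71 in superovulated and 11.70, 11.76 and 11.73 in control animals. Its log2 fold change of stimulated against control animals was -0.05, with a 95% interval of -0.20 to 0.10. The second probe set of NMI gave -0.01 there. In superovulated against control animals it gave -0.13, with every superovulated animal below every control (limma unadjusted p = 0.104). Over the 5 factors the median was 0.51 in stimulated and 0.26 in superovulated against control animals. In stimulated against superovulated animals it was 0.01. With 5 genes each median is the value of 1 gene, here IRF8, IRF7 and STAT2 in turn. IRF9 had 0.97 in the last comparison. The second probe set of IRF8 gave 0.06 in the first comparison, and the others of IRF7 gave -0.006 and 0.12 in the second. For the 16 antiviral effectors these medians were 0.86, 0.07 and 0.69, and for the GBPs 2.03, 0.34 and 1.69. Only 2 GBPs were found, GBP4 and GBP5, so each of their medians is a midpoint and not the value of a gene. In superovulated against control animals the 2 had opposite signs, 1.08 for GBP5 and -0.40 for GBP4. The contrast of the 3 roles is a description and was not tested.

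**Figure D3:**
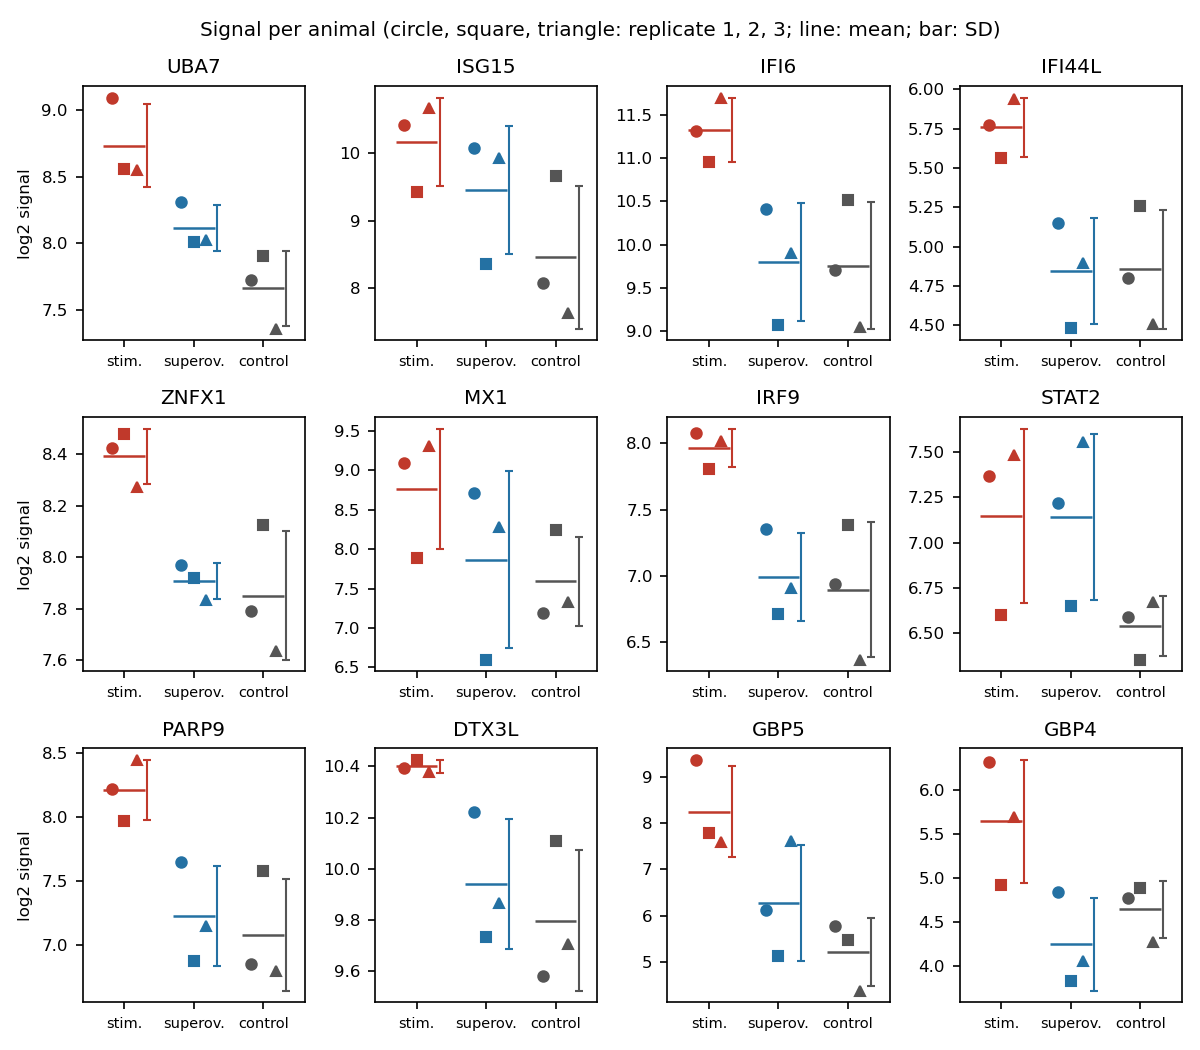
Log2 signal of 12 interferon-stimulated genes, with 1 symbol for each animal, the group mean as a line and the SD as a bar (n = 3; each panel has its own axis, which does not start at 0). Stimulated animals stand alone at the top for UBA7, IFI6, IFI44L, ZNFX1, IRF9, PARP9, DTX3L and, narrowly, GBP4, while STAT2 has stimulated and superovulated animals at one level.

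PARP9 and its partner DTX3L form a ubiquitin ligase complex that strengthens interferon signalling, and with PARP14 they lie next to each other in the RefSeq gene table. PARP9 was at 8.22, 7.97 and 8.44 in stimulated, 7.65, 6.88 and 7.15 in superovulated and 6.85, 7.58 and 6.80 in control animals. DTX3L was at 10.39, 10.43 and 10.38 in stimulated, 10.22, 9.73 and 9.87 in superovulated and 9.58, 10.11 and 9.71 in control animals. In both genes every stimulated animal was above every superovulated and control animal, with log2 fold changes against control animals of 1.13 for PARP9 (SE 0.27, limma adjusted p = 0.526) and 0.60 for DTX3L (SE 0.16, adjusted p = 0.596). The mono-ADP-ribosyl transferases PARP14 and PARP12 had 0.50 and 0.44 and did not pass an unadjusted p of 0.05 in that comparison. Other probe sets of PARP12, at mean signals of 3.13, 2.74 and 1.98, gave 0.35, -0.05 and 0.04. PARP14 was higher in stimulated than in superovulated animals, by 0.68 (limma unadjusted p = 0.039). IFI44 and IFI44L are neighbours in that table as well, with 1.76 and 0.90 in stimulated against control animals. So are MX1 and MX2, with 1.18 and 0.07, where MX2 had a mean signal of only 2.14.

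PML, which builds the nuclear bodies named after it, was at 5.26, 5.05 and 5.57 in stimulated, 4.81, 5.10 and 5.05 in superovulated and 5.28, 4.98 and 4.78 in control animals, with all groups overlapping and a log2 fold change of 0.28 between stimulated and control animals.

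The GBPs, GTPases that attack the membranes of intracellular pathogens, gave the list's largest difference. GBP5, which in human cells also promotes inflammasome assembly, was at 9.38, 7.79 and 7.60 in stimulated, 6.11, 5.12 and 7.62 in superovulated and 5.77, 5.47 and 4.37 in control animals. Stimulated animals lay above all controls, while superovulated 3 was at the level of stimulated 3 and the other superovulated animals were near the controls. The log2 fold change was 3.05 in stimulated against control animals (SE 0.73, limma adjusted p = 0.526) and 1.08 in superovulated against control animals (SE 0.73, adjusted p = 0.857). The other 3 probe sets of GBP5 gave 2.85, 2.42 and 0.23 in the first of these comparisons, the last at a mean signal of only 2.10. GBP4 averaged 5.64 in stimulated, 4.24 in superovulated and 4.64 in control animals, with stimulated animals higher than control animals (limma unadjusted p = 0.0336) and higher than superovulated animals, there by 1.40 (unadjusted p = 0.00733). Every stimulated animal was above every other animal, though stimulated 2, at 4.92, was close to control 2, at 4.88.

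The 2 antigen transport and 2 chemokine genes found, also interferon targets, did not pass an unadjusted p of 0.05 in any of the 3 comparisons. Among so few genes that is near the shares of all genes that passed. In stimulated against control animals these were 4.2% higher and 3.08% lower. TAP1, a chain of the transporter that loads peptides onto MHC class I, was at 10.60, 9.93 and 10.29 in stimulated, 9.99, 9.88 and 9.64 in superovulated and 9.50, 10.31 and 9.55 in control animals. Control 2 lay within the stimulated range, and the log2 fold change was 0.49 (95% interval -0.09 to 1.07). TAP2, the other chain, had 0.44, and passed there with the replicate number as a block (limma unadjusted p = 0.0426). CXCL11, a ligand of CXCR3, was at 5.67, 4.23 and 3.77 in stimulated, 3.99, 3.82 and 3.58 in superovulated and 4.37, 3.49 and 3.82 in control animals. Only stimulated 1 stood out, and without it the log2 fold change of 0.66 became 0.11. CXCL10, the neighbouring gene and another CXCR3 ligand, differed by 0.32 between stimulated and control animals.

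Many members varied together between animals of 1 group. Control 2 had the highest control value in 32 of 41 members (78.0%), against 34.0% of all genes, and superovulated 1 the highest superovulated value in 26 (63.4%), against 28.2% of all genes. Superovulated 2 was the lowest of its group in 22 members (53.7%, against 35.9% of all genes) and stimulated 2 in 23 (56.1%, against 42.0% of all genes). Measured as the median deviation of the 41 members from their means over the 9 arrays, the stimulated animals were at 0.43, 0.16 and 0.38, the superovulated animals at 0.03, -0.30 and -0.05 and the control animals at -0.35, 0.06 and -0.34. Stimulated 2 and control 2 thus differed by less than control 2 did from the other controls. The same measure over all genes stayed between -0.02 and 0.01.

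As a description over the 9 arrays, each gene's deviations from its group means were correlated with the median deviation of the other members. The arrays are shared by all genes, so the correlations are not independent. The median r was 0.50, and 14 of 41 genes were over 0.8, with PARP9 (0.95), ISG15 (0.94), XAF1 (0.93), IFI44L (0.92), IFI44 (0.92), IFI6 (0.91) and IRF7 (0.91) at the top. The antiviral effectors had a median r of 0.77. LGALS3BP, PML, CXCL11, CXCL10 and NMI had 0.21, 0.04, -0.03, -0.24 and -0.40. GBP5 had 0.35, so that its differences between animals of a group followed the other members little, although its difference between stimulated and control animals was larger than theirs.

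The genes upstream of the members were described from lists. Of the 25 interferon gene symbols listed, IFNB1, IFNAC, IFNG and IFNT2 alone were found, at signals between 1.55 and 3.01 in every animal, and 0 of 4 passed an unadjusted p of 0.05 in any comparison. Of the receptor chains IFNAR1, IFNAR2, IFNGR2 and IL10RB were found, again with 0 of 4. Among so few genes a count of 0 is near the share of all genes that passed. The kinase JAK1 was at 12.03 to 12.40. Of the 8 members of the JAK-STAT list found, 2 were higher in stimulated than in control animals at an unadjusted p under 0.05, the phosphatase PTPN6 by 0.50 and STAT3 by 0.29, and 0 were lower. The same 2 were higher in superovulated than in control animals, PTPN6 by 0.29 (limma unadjusted p = 0.0415) and STAT3 by 0.22 (unadjusted p = 0.0434), so that 25% of the 8 passed in both comparisons, where 4.2% and 3.13% of all genes did. CISH, an inhibitor of cytokine signalling, had 1.06 in stimulated against control animals (limma unadjusted p = 0.0648). STAT4, which signals for interleukin 12 and type I interferon in lymphocytes, was at 9.95, 10.11 and 9.84 in stimulated, 9.24, 8.52 and 8.28 in superovulated and 9.91, 8.56 and 9.16 in control animals. It was higher in stimulated than in superovulated animals, by 1.29 (limma unadjusted p = 0.00725), and had 0.76 in stimulated against control animals (unadjusted p = 0.0675).

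Of 13 genes found that induce interferon, TRAF6 (0.51) and IRF5 (0.54) were higher and the kinase IKBKE (-0.25) lower in stimulated than in control animals at an unadjusted p under 0.05. These are 15.4% and 7.69% of the 13, against 4.2% and 3.08% of all genes. MAVS, IRF3, TRAF3 and TLR3 differed by 0.18, 0.05, 0.01 and -0.06. A further list of interferon-induced genes had 41 found, with a median of 0.27 in that comparison. At an unadjusted p under 0.05 in limma 8 were higher (19.5%, against 4.2% of all genes) and 0 lower (3.08% of all genes). RTP4, a chaperone of membrane receptors and a known target of interferon tau, was at 5.64, 4.64 and 5.51 in stimulated, 4.18, 3.95 and 3.70 in superovulated and 3.25, 4.18 and 3.62 in control animals. Every stimulated animal was above every other animal, with a log2 fold change of 1.58 against control animals (limma unadjusted p = 0.00116). LAP3, B2M and TAPBP, which trim peptides, form MHC class I and load it, differed by 0.49, 0.33 and 0.27. The immunoproteasome genes PSMB8, PSMB9 and PSMB10 differed by 0.69, -0.04 and 0.41 and did not pass.

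Markers of immune cells also differed between the groups. A corpus luteum sample holds several cell types, and fewer cells of a type and less RNA per cell cannot be told apart. Of 25 listed macrophage and myeloid markers 20 were found. In stimulated against control animals 20 of 20 were higher, where 49.1% of all genes were, and the median log2 fold change was 1.31. At an unadjusted p under 0.05 in limma 13 were higher (65%, against 4.2% of all genes). Their summed log2 signal ran from 128.7 to 148.2 in stimulated, 123.1 to 142.4 in superovulated and 102.0 to 121.4 in control animals. No marker was at 0, a level that this scale does not have, and ITGAM lay between 2.35 and 2.73 in all animals. CD68 was at 6.14, 7.86 and 7.41 in stimulated, 5.59, 7.56 and 6.27 in superovulated and 5.32, 5.38 and 4.57 in control animals.

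Within the treated groups the order of the animals by myeloid markers was not that of the interferon-stimulated genes. Their median deviation was 0.04, 0.99 and 0.57 in stimulated, -0.13, 0.68 and -0.17 in superovulated and -0.39, -0.24 and -1.32 in control animals. Stimulated 2 and superovulated 2, highest of their groups in myeloid markers, were lowest of their groups in the median of the 41 members. Control 2 was the highest control in both, at -0.24 in myeloid markers and 0.06 in the members. Control 3 was far below the others in myeloid markers while control 1 and control 3 were alike in the members. In superovulated against control animals 18 of 20 myeloid markers were higher (53.2% of all genes were), with a median of 0.56, where the 41 members had 0.06. The part of myeloid cells in the members' differences was not tested.

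**Figure D4:**
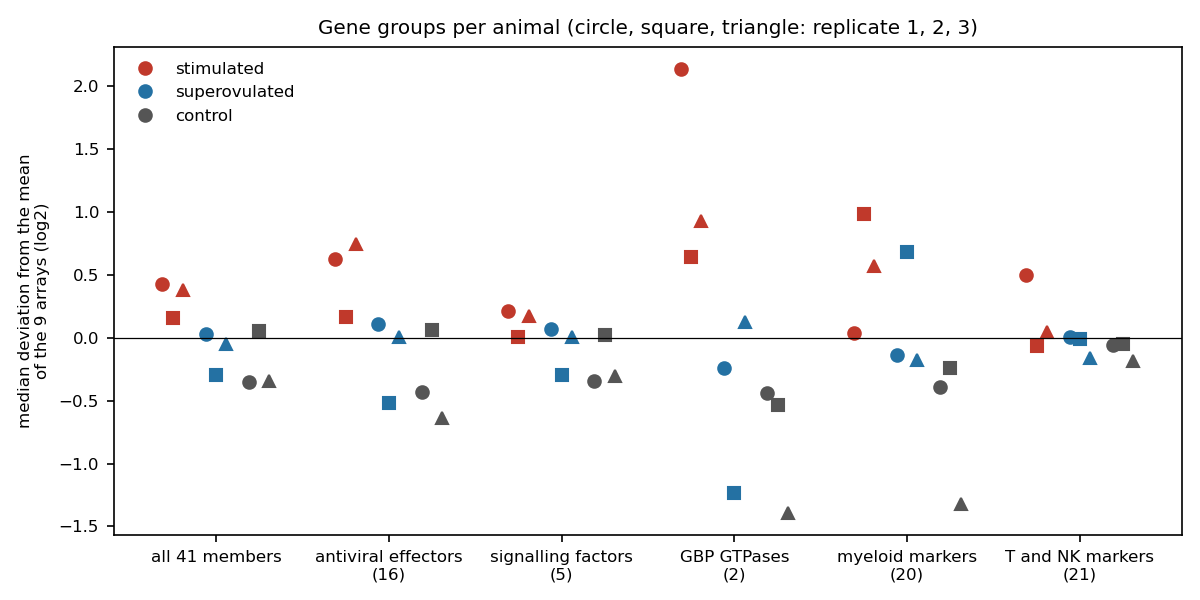
Each point is 1 animal, placed at the median deviation of a gene group from its mean over the 9 arrays (log2), with stimulated, superovulated and control animals from left to right within a group. The square symbols, replicate 2, are the lowest within each treated group for the 41 members (0.16 and -0.30) and the highest within each for myeloid markers (0.99 and 0.68).

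T and natural killer cell markers were found for 21 of 29 symbols. Of these, 18 had the higher mean in stimulated animals, 4 of them (19.0%, against 4.2% of all genes) at an unadjusted p under 0.05, and the median log2 fold change was 0.35. Their summed log2 signal was 67.5 to 83.1 in stimulated, 66.1 to 70.0 in superovulated and 63.5 to 69.7 in control animals, with the highest value in stimulated 1, the animal that also led in GBP5 and CXCL11. GNLY, a granule protein of these cells, had a log2 fold change of 1.83 in stimulated against control animals (limma unadjusted p = 0.024), and CD8A, a chain of the T cell co-receptor, had 1.23 with the groups apart (unadjusted p = 0.033), while CD4, CD5 and CD28 lay between 2.15 and 2.55 in all animals. The 9 neutrophil markers found ran the other way, with a median of -0.81. Of these, 8 of 9 were lower in stimulated than in control animals, where 4649 of all 9142 genes were. Summed, they reached 34.7 to 38.1 in stimulated, 43.0 to 47.1 in superovulated and 41.7 to 47.4 in control animals. Endothelial markers, of which 15 were found, had their highest median deviations in stimulated 2 (0.45) and control 2 (0.47), against -0.37 and -0.40 in the other controls. In the median of the interferon-stimulated genes control 2 was also highest of the controls (0.06), while stimulated 2 was lowest of the stimulated animals (0.16). The part of these cell types was not tested.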

How the data were processed

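Total RNA from 9 corpora lutea was labelled as cRNA and hybridised to 1 array each, without pooling, per the labels' protocols. The deposited values are in no standard unit: they are runs of digits that have lost their decimal mark, which was restored from the values. A run starting with 1 is open to a reading as 1.x or 1x.x if the latter stays under 16; 15.5% of cells were open. No run was open in 19509 probe sets, and the other arrays settled 1588. The spread between arrays settled 2966 as 1x.x and 9 as 1.x at a posterior of 0.95 (2.21 wrong readings expected), and 56 were left out. Values are read as log2; their log base, and how probes were summarised and normalised, is not given in the sources used here. No normalisation or filter was added. Arrays have no read depth; their number limits the precision.

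Each of 23961 probe sets was fitted with limma 3.58.1 (R 4.3.3; lmFit, eBayes; all 9 arrays, 1 mean per group, 2-sided) and adjusted by Benjamini-Hochberg. The steps were tested on simulated data. For the fit, noise was drawn independently for each probe set, while many members varied together, so that test does not bear on the counts of members. Each p-value sets a difference between groups against the spread between animals, pooled over the 3 groups and moderated by limma over all probe sets. Counts at an unadjusted p under 0.05 are descriptions. Symbols come from the array's probe table, and 35 of 41 members also stand in the RefSeq table of assembly NIAB-ARS_B.indTharparkar_mat_pri_1.0, used for names and neighbours only.

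The members, the gene lists and the alternatives were chosen with earlier results of these data known. Given per animal are 17 members: the 8 with the smallest p in stimulated against control, the smallest p in each role there, the 3 lowest log2 fold changes there, and the 3 smallest p in superovulated against control. Other genes given per animal were chosen after their values were seen. Labels share replicate numbers across groups. Deviations of same-numbered animals correlated at 0.20, 0.38 and 0.15 between stimulated and superovulated animals, at 0.16, 0.28 and -0.03 between stimulated and control animals and at 0.08, 0.35 and 0.16 between superovulated and control animals. The labels do not say what a number shares, and these values do not settle whether any groups were paired. The fit with the number as a block spans all groups and is given as an alternative only. Alternatives were each animal left out, quantile normalisation, no probe sets of the dimmest 25%, the replicate number as a block, probe sets with no open run only, the 2 groups compared only, and the mean of a gene's probe sets.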

Additional observations from a re-analysis of the deposited data

How the results depend on the processing

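Under every alternative run 0 members passed an adjusted p of 0.05, and the number of members lower at an unadjusted p under 0.05 did not change in any comparison. In stimulated against control animals the number higher (22) ran from 10 to 26 with 1 animal left out, and the median (0.54) from 0.49 to 0.71. In superovulated against control animals the number higher (1) ran from 0 to 6 and the median (0.06) from 0.0017 to 0.31 with 1 animal left out. The number higher there was 0 after quantile normalisation, 2 with only the 2 groups compared, and 2 with the replicate number as a block (UBA7 and STAT2). The number higher in stimulated against superovulated animals (17) ran from 9 to 19 with 1 animal left out and was 14 with the block. With the block, 19 of the 22 members in stimulated against control animals still passed, IRF7, ISG15 and OAS1X did not, and STAT2 and TAP2 did. LGALS3BP changed sign in stimulated against control animals (-0.24 to 0.059 with 1 animal left out). In superovulated against control animals the sign changed with 1 animal left out for HERC6 (-0.036 to 0.064), ZNFX1 (-0.050 to 0.19), IFI6 (-0.31 to 0.42), IFI44L (-0.18 to 0.19), LGALS3BP (-0.36 to 0.15), DHX58 (-0.048 to 0.18), IRF9 (-0.17 to 0.34), NMI (-0.082 to 0.0029), PML (-0.14 to 0.11), PARP9 (-0.063 to 0.40), TAP1 (-0.092 to 0.31) and CXCL11 (-0.30 to 0.14). IFI44L was also positive there after quantile normalisation (0.0027). In stimulated against superovulated animals it changed for STAT2 (-0.24 to 0.28), LGALS3BP (-0.23 to 0.28) and NMI (-0.050 to 0.036), for STAT2 also after quantile normalisation (-0.035), and for NMI also after quantile normalisation (0.0055) and with the mean of its probe sets (0.060). These are members with differences near 0 and the cause was not tested. The number of arrays, 3 a group, and the 4 members whose decimal mark was settled by spread alone limit what can be read.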
